A study of Mus musculus with 56 samples.

Results

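The 40 genes described here are targets and regulators of the integrated stress response, the program run by the transcription factor ATF4. They were listed by name from the pathway, with earlier results of these data known. For each gene, the ATAC-seq peaks whose centres lay 10 kb or less from its start (mm10, GENCODE start sites) were added up into 1 locus, so that chromatin accessibility around the gene could be read as 1 value. These 40 loci were part of 18691 protein-coding loci that held at least 1 peak, and they held 278 of 297361 peaks. The 56 libraries came from 28 single-cell-derived clones of mouse granulocyte-monocyte progenitors (GMPs) that carried floxed Tet2 alleles (Tet2 fl/fl) and were kept as progenitors by Hoxb8-ER, an estrogen-receptor fusion of Hoxb8 that is held active by beta-estradiol. Each clone existed as a Tet2 KO line, made with a Cre-carrying integrase-defective vector, and as a sister control line, which received GFP in the same kind of vector.

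The groups were 4 Tet2 KO and 4 control lines of the clones grown in GM-CSF (10 ng/ml), and 24 Tet2 KO and 24 control lines of the clones grown in SCF (100 ng/ml). All received 0.5 µM beta-estradiol, and 1000 cells went into each library. The titles of GM-CSF clones 20 to 22 name SCF, but their treatment field, library names and the design text name GM-CSF, which was followed. Accessibility was given as CPM, the counts in a locus scaled to the total counts in all peaks of that library (the usual per-megaread scale). Total counts were 39379 to 468878 in GM-CSF Tet2 KO lines, 88234 to 766838 in GM-CSF control lines, 130049 to 1079233 in SCF Tet2 KO lines and 102302 to 1042973 in SCF control lines. Clones 19 and 20 were the shallow GM-CSF clones, so the GM-CSF values rested mostly on clones 21 and 22. The share of counts on the X chromosome, relative to the median library, was 0.714 to 0.840 in all GM-CSF lines, 0.739 to 0.915 in SCF clones 23 to 29 and 0.961 to 1.09 in SCF clones 1 to 18, so that clones 1 to 18 stood apart, and comparisons were also run against each set of SCF clones. A pair of Tet2 KO libraries (SCF clones 13 and 16) and a pair of control libraries (GM-CSF clones 19 and 20) each differed by no more than sampling noise. The summed CPM of 7 stem and early progenitor markers was 97.8 to 170 in GM-CSF control lines and 287 to 555 in SCF control lines, and all 6 tested ones were called lower. Of the tested markers of other lineages in control lines, 5 neutrophil genes were higher and 2 lower of 10, and 2 of 9 monocyte, 2 of 5 lymphoid and 1 of 5 erythroid genes were lower. The part of these differences in the results below was not tested. In bulk libraries, fewer cells with an open locus and less opening per cell cannot be told apart. The Tet2 locus read its promoter region and not the excised part of the gene, so it was no check of the labels (log2 fold change in SCF clones 0.03 ± 0.13 SE).

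When amino acids run short, unfolded proteins build up, haem is lacking or double-stranded RNA is sensed, kinases phosphorylate the initiation factor eIF2. General translation then falls while ATF4 messenger RNA is translated more. ATF4 pairs with C/EBP proteins on a composite C/EBP-ATF response element, abbreviated CARE, and raises genes for amino acid synthesis and uptake, tRNA charging, redox balance and, under lasting stress, cell death. In blood cells the pathway is known for its role in the survival of stem and progenitor cells under stress. Because ATF4 is controlled mainly by translation, chromatin accessibility around its own gene is not a measure of its activity.

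The CARE letters were common in the promoters of these genes. Searched were the 8 letters TGATGNAA and their reverse complement TTNCATCA, in windows from 250 bases before to 50 after the RefSeq start (GRCm38.p6). Of the 40 genes, 31 had a RefSeq window, and in 27 of these its start lay within 1000 bp of the GENCODE start. The letters were found in 10 of these 27 windows (37%), against 422 of 14226 such windows in the genome (2.97%). The 10 windows held 12 matches, 11 of them within 120 bases of the start and 11 inside an ATAC-seq peak of the gene. A match is a description of letters and not a bound site. The genes were listed as targets and regulators of the ATF4 program, so this share describes the list and is no result of the accessibility data. The full CREB/ATF palindrome TGACGTCA was in 1 of the 27 windows (2.65% of all windows), and the E-box CACGTG was in 4 of them (8.65% of all windows).

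These 30-base stretches show the matches at the genes whose accessibility is described below, 5′ to 3′ on the gene's strand, with the CARE letters in capitals. Asns, Slc7a11 and Yars were called between cytokines in control lines and Chac1 in Tet2 KO lines, while Trib3 is a member described in every comparison.
Asns, chr6:7693214-7693243, minus strand, 23 bases before the start: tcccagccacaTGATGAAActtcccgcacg
Slc7a11, chr3:50443661-50443690, minus strand, 66 bases before the start: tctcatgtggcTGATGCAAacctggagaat
Slc7a11, chr3:50443642-50443671, minus strand, 47 bases before the start: acctggagaatTTGCATCAtcatgcagccc
Chac1, chr2:119351038-119351067, plus strand, 193 bases before the start: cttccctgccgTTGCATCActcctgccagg
Yars, chr4:129189895-129189924, plus strand, 4 bases after the start: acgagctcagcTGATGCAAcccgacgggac
Trib3, chr2:152344028-152344057, minus strand, 15 bases after the start: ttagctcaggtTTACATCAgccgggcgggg
The pair at Slc7a11 faces opposite ways, with 11 bases between the matches. The remaining matches were in the tRNA synthetase genes Aars (2 matches), Gars, Iars and Tars and in Herpud1. No match was found in the windows of Stc2 and Vldlr, and no window was used for Cth and Lars.

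The first comparison asked which of these loci differed between clones grown in GM-CSF and in SCF, among control lines. Asns, Cth, Slc7a11 and Stc2 were higher in GM-CSF clones, while Vldlr and Yars were lower. The calls of Asns, Cth and Slc7a11 were all lost with a 50 kb window (adjusted p = 0.0734, 0.0924 and 0.184) and without clone 22. Of the 40 loci, 39 passed the filter on low counts and 6 were called, 4 higher and 2 lower (edgeR quasi-likelihood test, Benjamini-Hochberg adjusted p under 0.05 over all 12934 loci). This was 15.4% of the tested members, near the 12.4% of all tested loci that were called (5.77% higher and 6.68% lower). The median log2 fold change of the members was 0.11, against -0.01 for all loci. Cth and Slc7a11 passed the filter only with the GM-CSF libraries in the fit, so they entered through the group where they were high, and Psat1 did not pass.

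**Figure D1:**
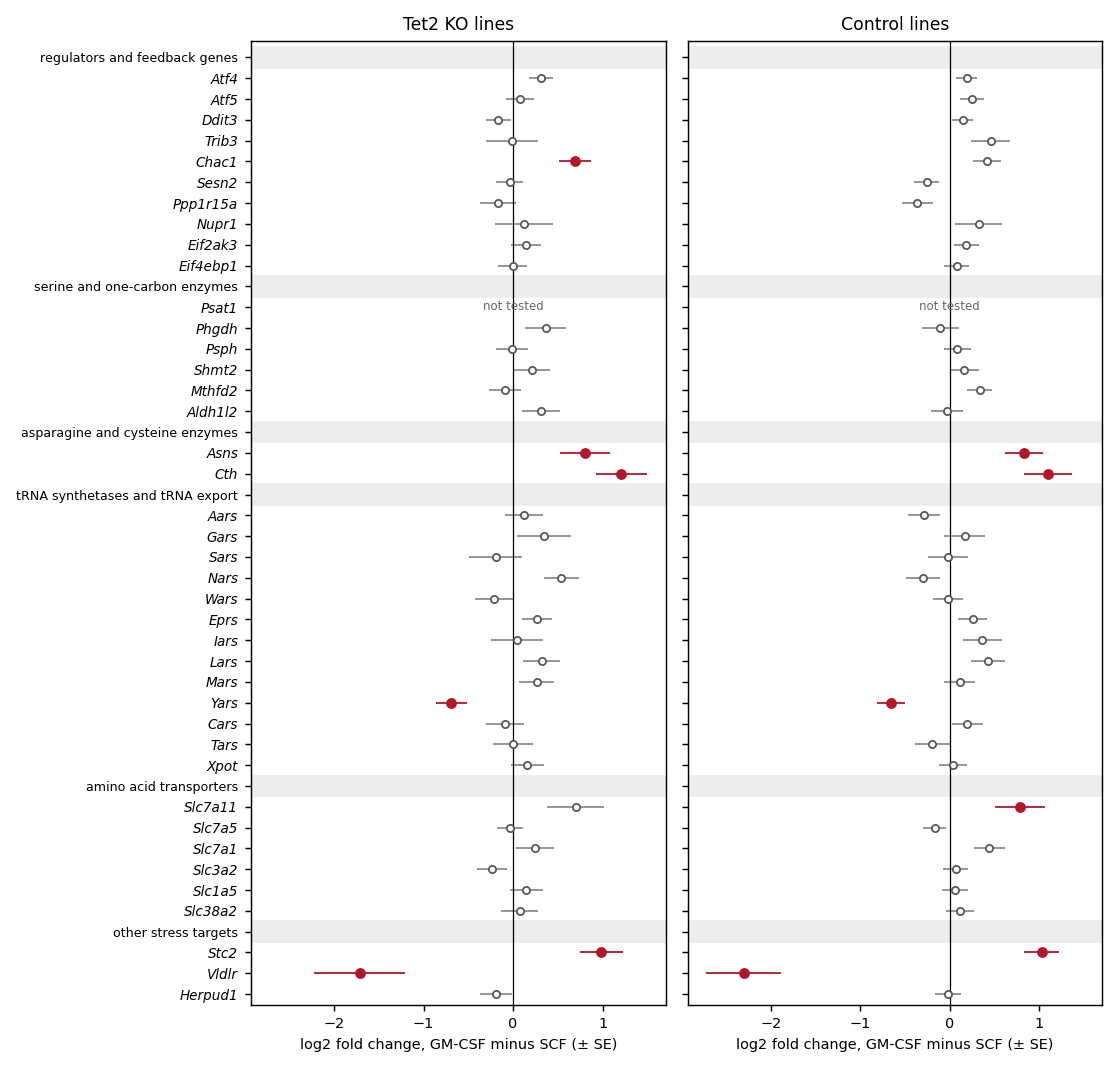
Log2 fold change of each member locus between GM-CSF and SCF clones, in Tet2 KO lines (left) and control lines (right), with bars of 1 SE; filled red points passed an adjusted p under 0.05. Most loci sit within 0.5 of 0, while Asns, Cth and Stc2 lie to the right and Yars and Vldlr to the left of 0 in both panels.

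Asns, asparagine synthetase, makes asparagine from aspartate and glutamine. It had 95.7, 45.3, 42.3 and 53.5 CPM in GM-CSF control lines 19 to 22, against a lowest, median and highest value of 10.2, 31.6 and 43.4 CPM in the 24 SCF control lines. All but 1 of the GM-CSF lines lay above every SCF line, and only 2 SCF lines exceeded the lowest GM-CSF line. Asns thus rose by a log2 fold change of 0.83 ± 0.21 (SE, edgeR adjusted p = 0.00312). It was 0.56 ± 0.24 (adjusted p = 0.129) when only SCF clones 23 to 29 served as the comparison.

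Cth, cystathionine gamma-lyase, releases cysteine in the last step of transsulfuration. It had 34.8, 68.0, 25.8 and 46.9 CPM in GM-CSF control lines 19 to 22, against 0, 20.3 and 32.7 CPM (lowest, median, highest) in SCF control lines. Of the 24 SCF lines, 3 lay above the lowest GM-CSF line. Clone 19 held only 4 counts, and the highest value was that of the shallow clone 20. Cth rose by 1.09 ± 0.27 on the log2 scale (edgeR adjusted p = 0.00175). Slc7a11, the cystine-glutamate exchanger that brings cystine into cells, had 8.7, 22.7, 29.4 and 40.4 CPM in GM-CSF control lines, against 0, 16.5 and 32.2 CPM (lowest, median, highest) in SCF control lines. Its groups overlapped widely, with only clone 22 above all SCF lines. The log2 fold change of 0.78 ± 0.28 was just past the threshold (edgeR adjusted p = 0.045), and the call was lost in 8 of 13 alternatives, among them DESeq2 (adjusted p = 0.103) and SCF clones 23 to 29 alone as the comparison (0.94 ± 0.34, adjusted p = 0.0686).

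Stc2, stanniocalcin 2, is a secreted glycoprotein induced by stress of the endoplasmic reticulum. It had 26.1, 34.0, 64.4 and 79.5 CPM in GM-CSF control lines 19 to 22, against 9.77, 30.6 and 55.0 CPM (lowest, median, highest) in SCF control lines. Clones 21 and 22 lay above every SCF line, while clones 19 and 20, with 3 counts each, lay inside the SCF range. Stc2 rose by 1.02 ± 0.19 on the log2 scale (edgeR adjusted p = 2.63e-05).

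Vldlr, the receptor for very-low-density lipoprotein, fell the most of the 40 loci. The GM-CSF control lines held 1, 1, 3 and 3 counts, which is 8.7, 11.3, 5.5 and 3.9 CPM, against 0, 28.0 and 40.7 CPM (lowest, median, highest) in SCF control lines. Only 3 of the 24 SCF lines lay below the highest GM-CSF line. Pooled over libraries, 8 counts in GM-CSF control lines against 302 counts in SCF control lines gave a ratio of 0.191 (95% exact interval 0.0815 to 0.380, counting error only), and the fitted log2 fold change was -2.30 ± 0.42 (edgeR adjusted p = 1.01e-05). Yars, tyrosyl-tRNA synthetase, had 69.6, 68.0, 71.8 and 61.3 CPM in GM-CSF control lines, against 72.3, 104 and 155 CPM (lowest, median, highest) in SCF control lines. It was the only member whose groups did not overlap, as in 0.773% of all tested loci on the lower side and 0.649% on the higher side. Its log2 fold change was -0.66 ± 0.16 (edgeR adjusted p = 0.00131), but every count at this locus also fell within 10 kb of the start of S100pbp, so the value cannot be given to Yars alone.

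The count of calls depended on clone 22. Without it, 1 of the 6 calls remained (Vldlr, -1.96 ± 0.54), although each of the 6 log2 fold changes kept its sign. Without the clones that had a library under 50% of the median total count, 7 members were called, the added one being Chac1 (0.55 ± 0.16, adjusted p = 0.0121).

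**Figure D2:**
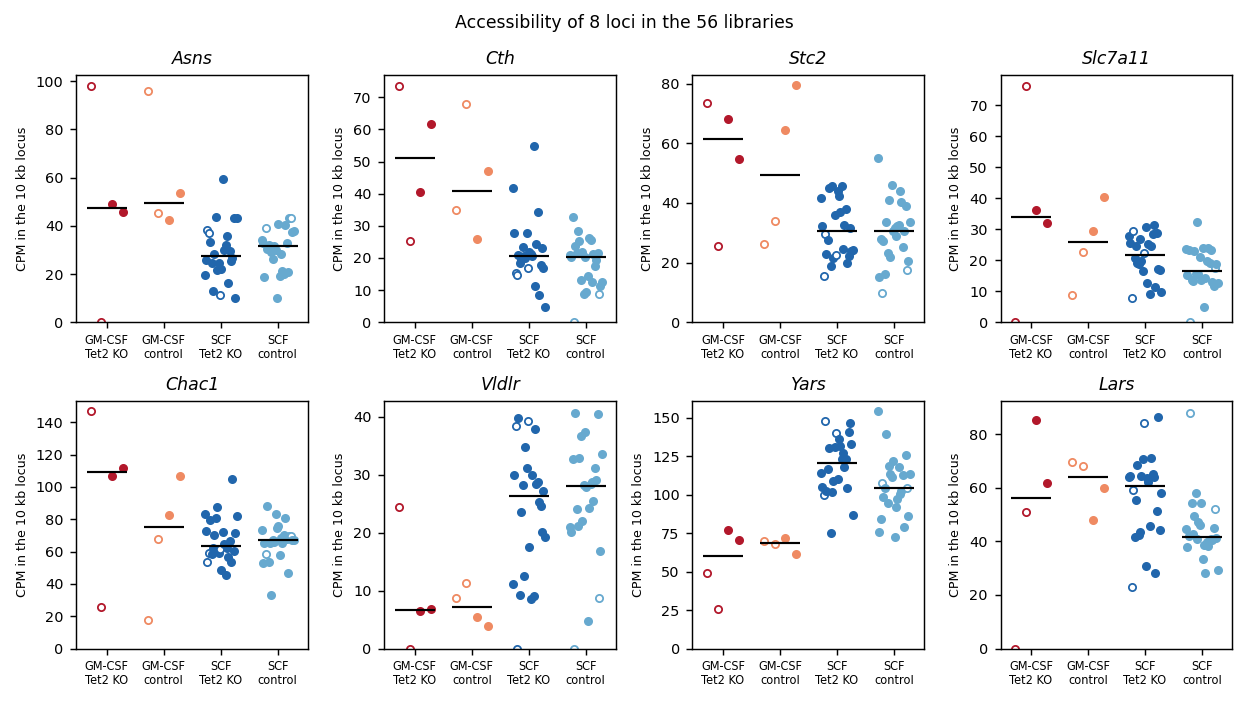
CPM of 8 member loci in all 56 libraries by group, 1 point a library; open points are libraries under 50% of the median total count and lines are group medians. For Yars, all GM-CSF control points lie at 61.3 to 71.8 CPM, below every SCF control point, and for Vldlr the GM-CSF control points lie at 3.9 to 11.3 CPM, against a median of 28.0 CPM in SCF control lines.

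None of the 10 regulators and feedback genes passed in control lines. Atf4 itself had 226, 204, 193 and 209 CPM in GM-CSF control lines 19 to 22, against 121, 178 and 227 CPM (lowest, median, highest) in SCF control lines. Its log2 fold change was 0.19 ± 0.12 (edgeR adjusted p = 0.313), and 96.8% of its counts were shared with the neighbour Rps19bp1. Ddit3, which encodes the pro-death factor CHOP, gave 0.14 ± 0.12 (adjusted p = 0.518) and Trib3, a pseudokinase that inhibits ATF4, gave 0.46 ± 0.22 (adjusted p = 0.159). The smallest p in this group was that of Chac1, a glutathione-degrading enzyme. It had 17.4, 68.0, 82.8 and 107 CPM in GM-CSF control lines, against 32.9, 67.3 and 88.2 CPM (lowest, median, highest) in SCF control lines, and its log2 fold change was 0.41 ± 0.16 (adjusted p = 0.0634). The 2 counts of clone 19 made its low end.

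The 5 tested serine and one-carbon enzymes had log2 fold changes between -0.11 and 0.33, and none passed. Mthfd2, the mitochondrial folate enzyme, came closest (0.33 ± 0.14, edgeR adjusted p = 0.0994), with 157, 90.7, 99.4 and 106 CPM in GM-CSF control lines and 39.1, 86.5 and 106 CPM (lowest, median, highest) in SCF control lines. All of its counts were shared with Mob1a, whose start lies close by. The GENCODE start used for Mthfd2 lay 8304 bp from its RefSeq start. Psat1, an enzyme of serine synthesis, had too few counts for the test: 21 in the 4 GM-CSF control lines and 91 in the 24 SCF control lines, a pooled ratio of 1.66 (95% exact interval 0.98 to 2.69). The GENCODE start used for Psat1 lay 22278 bp from its RefSeq start, and no peak of the locus was a promoter peak. These counts thus leave out the RefSeq promoter of Psat1. Of the 13 tRNA synthetase and tRNA export genes, 7 had positive and 6 negative values, and Yars alone was called. Of the 6 amino acid transporters, Slc7a11 alone was called, and Slc7a1, the cationic amino acid transporter, had 0.44 ± 0.17 (adjusted p = 0.0734).

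The same contrast in Tet2 KO lines used sister lines of the same clones, so it is no independent repeat. Of 39 tested members, 6 were called, 4 higher and 2 lower, which is 15.4%, against 9.83% of all 11379 tested loci (4.23% higher and 5.61% lower). As in control lines, Cth and Slc7a11 passed the filter only with the GM-CSF libraries in the fit. The call of Cth may thus be that of a locus that entered through the group where it was high. Cth (1.21 ± 0.29, edgeR adjusted p = 0.00134), Stc2 (0.98 ± 0.24, adjusted p = 0.0019), Asns (0.81 ± 0.28, adjusted p = 0.0446), Vldlr (-1.72 ± 0.50, adjusted p = 0.0137) and Yars (-0.69 ± 0.18, adjusted p = 0.00359) were called in both kinds of line. The Asns call was lost in 10 of 14 alternatives and the Vldlr call in 4 of 12, among them DESeq2 (adjusted p = 0.0576) and a 50 kb window (adjusted p = 0.075), and GM-CSF Tet2 KO line 20 had no count at Asns, which put its groups in full overlap.

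Chac1 was called in Tet2 KO lines only, but no test of the difference between both kinds of line passed. It had 147, 25.4, 107 and 112 CPM in GM-CSF Tet2 KO lines 19 to 22, against 45.7, 63.4 and 105 CPM (lowest, median, highest) in SCF Tet2 KO lines. All but line 20, which had 1 count, lay above every SCF line. The highest value was that of line 19, a shallow library with a total count of 40876. The log2 fold change was 0.69 ± 0.18 (edgeR adjusted p = 0.00306), and the term for a different Tet2 KO effect by cytokine was 0.27 ± 0.22 (adjusted p = 0.998). The Chac1 call was lost in 4 of 14 alternatives. These were a 1 kb window, a 50 kb window, and fits without clone 21 or without clone 22. Slc7a11 was not called here (0.70 ± 0.32, adjusted p = 0.162). Atf4 gave 0.31 ± 0.13 (adjusted p = 0.122), Ddit3 -0.16 (adjusted p = 0.513), Trib3 -0.01 (adjusted p = 0.989), and the serine-synthesis enzyme Phgdh 0.36 ± 0.23 (adjusted p = 0.354). No member was free of overlap here, against 0.299% of all tested loci on the higher side and 0.633% on the lower side. The count of calls fell to 2 without clone 21 (Cth and Yars) and to 1 without clone 22 (Stc2).

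Of the 278 member peaks, 49 passed the filter in control lines, 43 of them in promoters, so that peaks away from promoters were mostly untested, and 3 were called higher and 0 lower (edgeR adjusted p at or under 0.01), which is 6.12%, against 14.7% of all 13171 tested peaks (4.8% higher and 9.88% lower). They are the promoter peaks of Asns and Cth and the peak that Mthfd2 shares with Mob1a. The promoter share of all tested peaks was not counted, here or in the Tet2 KO comparison below. The called shares of member peaks and of all peaks may thus come from unlike sets. The Asns promoter peak (chr6:7693107-7693407), which contains the CARE letters printed above, had 41.6 CPM in pooled GM-CSF control lines and 23.9 CPM in pooled SCF control lines, with a log2 fold change of 0.93 ± 0.24 (adjusted p = 0.00124). The Cth promoter peak (chr3:157925050-157925350) had 39.0 and 16.4 CPM in the same pools, GM-CSF first (1.34 ± 0.27, adjusted p = 3.64e-05). The Cth locus itself passed the filter only with the GM-CSF libraries in the fit. The peak shared by Mthfd2 and Mob1a (chr6:83325873-83326173) had 60.8 CPM in GM-CSF control lines and 43.9 CPM in SCF control lines (0.59 ± 0.18, adjusted p = 0.0076). It was annotated as the promoter of Mob1a. The peak annotated as the promoter of Mthfd2 (chr6:83317456-83317756) was tested and not called (0.33 ± 0.22, edgeR adjusted p = 0.303). None of the 3 called peaks passed without clone 22.

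The other loci with a call had peaks below the filter or the threshold. The Slc7a11 promoter peak (chr3:50443410-50443710), with both CARE matches, had 32 counts or 21.1 CPM in pooled GM-CSF control lines and 125 counts or 11.5 CPM in pooled SCF control lines. At Stc2, the promoter peak had 24.4 CPM in GM-CSF and 13.8 CPM in SCF control lines, and an intergenic peak upstream, at -1616 bp from the start (chr11:31371540-31371840) had 21.1 CPM, from 32 counts, in GM-CSF control lines and 3.03 CPM, from 33 counts, in SCF control lines. The upstream peak thus held about as many counts in 4 libraries as in 24. At Vldlr, 3 peaks at 497, 1507 and 2535 bp past the start held 3, 1 and 2 counts in all GM-CSF control lines together, against 9.46, 5.61 and 11.6 CPM in pooled SCF control lines (103, 61 and 126 counts). At Yars the promoter peak had 55.5 CPM in GM-CSF control lines and 89.3 CPM in SCF control lines (-0.56 ± 0.18, adjusted p = 0.0152).

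**Figure D3:**
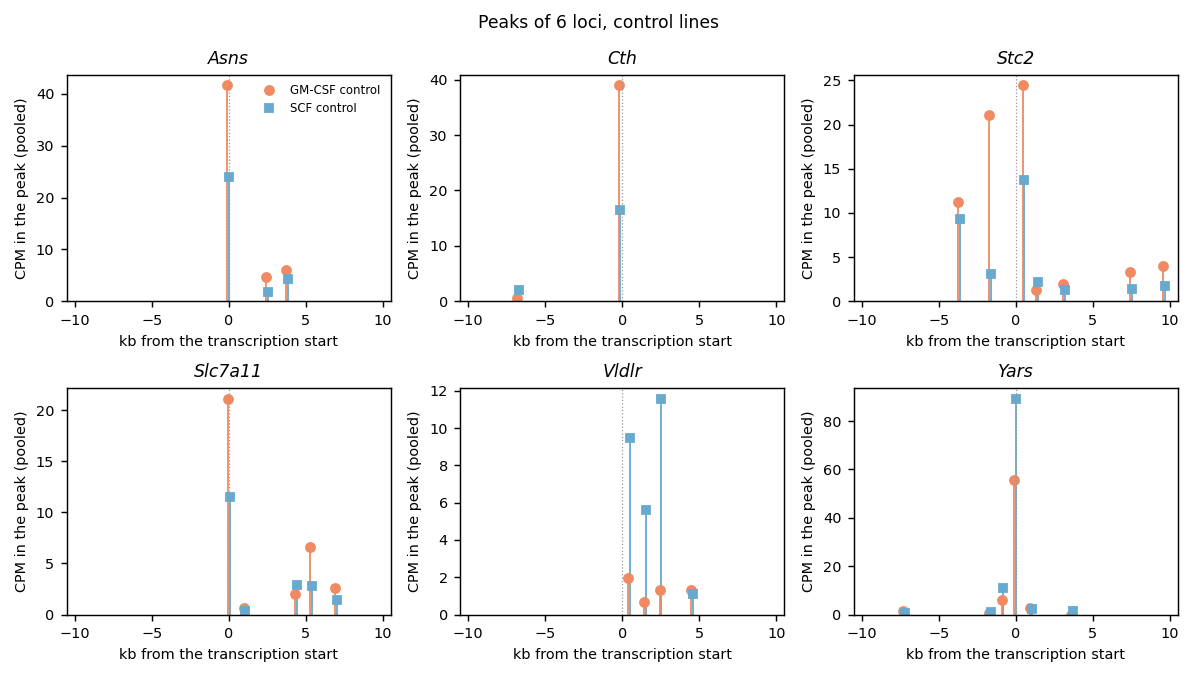
CPM in each peak of 6 loci, pooled over the 4 GM-CSF control lines (orange circles, shifted left by 0.12 kb) and the 24 SCF control lines (blue squares), against distance from the transcription start in kb. At Asns, Cth and Slc7a11 the gap lies at the promoter peak, at Stc2 also at the upstream peak at -1.616 kb, and at Vldlr in the peaks after the start.

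The next comparison asked what loss of Tet2 changed, by pairing the Tet2 KO and control line of each clone. In SCF clones, 37 members passed the filter (all but Psat1, Cth and Slc7a11) and 1 was called higher and 0 lower, which is 2.7%, against 6.16% of all 10409 tested loci (4.64% higher and 1.52% lower). The median log2 fold change was -0.02 for the members and -0.01 for all loci. At an unadjusted p under 0.05 there were 6 of the 37 members and 2085 of the 10409 loci.

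The called member was Lars, leucyl-tRNA synthetase, which charges leucine and also senses it for mTORC1. It had 23.1, 60.7 and 86.2 CPM (lowest, median, highest) in SCF Tet2 KO lines, against 28.3, 41.6 and 88.0 CPM in SCF control lines. The groups overlapped throughout, but the Tet2 KO line was higher in 18 of 24 pairs. Such a count was also reached by members without a call. Atf5 was higher in 19 of 24 pairs (edgeR adjusted p = 0.147) and Yars in 18 of 24 (adjusted p = 0.226). The share of all loci with such pair counts was not counted. Lars rose by 0.37 ± 0.10 on the log2 scale (edgeR adjusted p = 0.00804), and it was 0.41 without the clone block. Its promoter peak (chr18:42261919-42262219), the larger of its peaks, gave 0.34 (adjusted p = 0.0182), past 0.05 but not past the limit of 0.01, and 0 of 40 tested member peaks were called, against 2.5% of all 7871 tested peaks (2.22% higher and 0.28% lower). In clones 1 to 18 the locus gave 0.40 ± 0.12 (adjusted p = 0.0315) and in clones 23 to 29 it gave 0.31 ± 0.19 (adjusted p = 0.61). In GM-CSF clones it gave 0.31 ± 0.25 (adjusted p = 0.958), with the Tet2 KO line higher in 2 of 4 pairs.

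Ddit3 was next, just short of the threshold. It had 79.8, 220 and 285 CPM (lowest, median, highest) in SCF Tet2 KO lines, against 141, 182 and 303 CPM in SCF control lines, and the Tet2 KO line was higher in 18 of 24 pairs. The log2 fold change was 0.17 ± 0.06 (edgeR adjusted p = 0.052). It passed in 5 of 13 alternatives, among them without clone 13 (0.18, adjusted p = 0.0422), whose Tet2 KO library differed from that of clone 16 by less than sampling noise. Nearly all of its counts (98.7%) were shared with Mbd6. In GM-CSF clones the Tet2 KO line was lower at Ddit3 in 4 of 4 pairs. Tet2 KO lines 19 to 22 had 48.9, 152, 190 and 199 CPM, against 191, 204, 191 and 219 CPM in their control lines. The lowest of these values rested on 2 counts, and the pair with 190 and 191 CPM hardly differed. The fitted log2 fold change in GM-CSF pairs was -0.14 ± 0.17 (edgeR adjusted p = 0.979). The share of all loci with such a split was not counted. The difference of the Tet2 KO effect between cytokines did not pass (-0.32 ± 0.18, adjusted p = 0.998).

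The other members named in SCF clones were closer to 0. Atf4 gave -0.10 ± 0.06 (edgeR adjusted p = 0.354), Asns -0.15 (adjusted p = 0.582), Trib3 0.03 (adjusted p = 0.92) and Chac1 0.02 (adjusted p = 0.938). Among one-carbon enzymes, transporters and other stress targets the smallest p were those of Shmt2, mitochondrial serine hydroxymethyltransferase (-0.17 ± 0.08, adjusted p = 0.252), Slc38a2, a neutral amino acid transporter (-0.13 ± 0.09, adjusted p = 0.39), and Herpud1, a component of endoplasmic reticulum degradation (0.08, adjusted p = 0.58). The 13 tRNA synthetase and tRNA export genes split into 5 positive and 8 negative values, from -0.25 to 0.37.

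**Figure D4:**
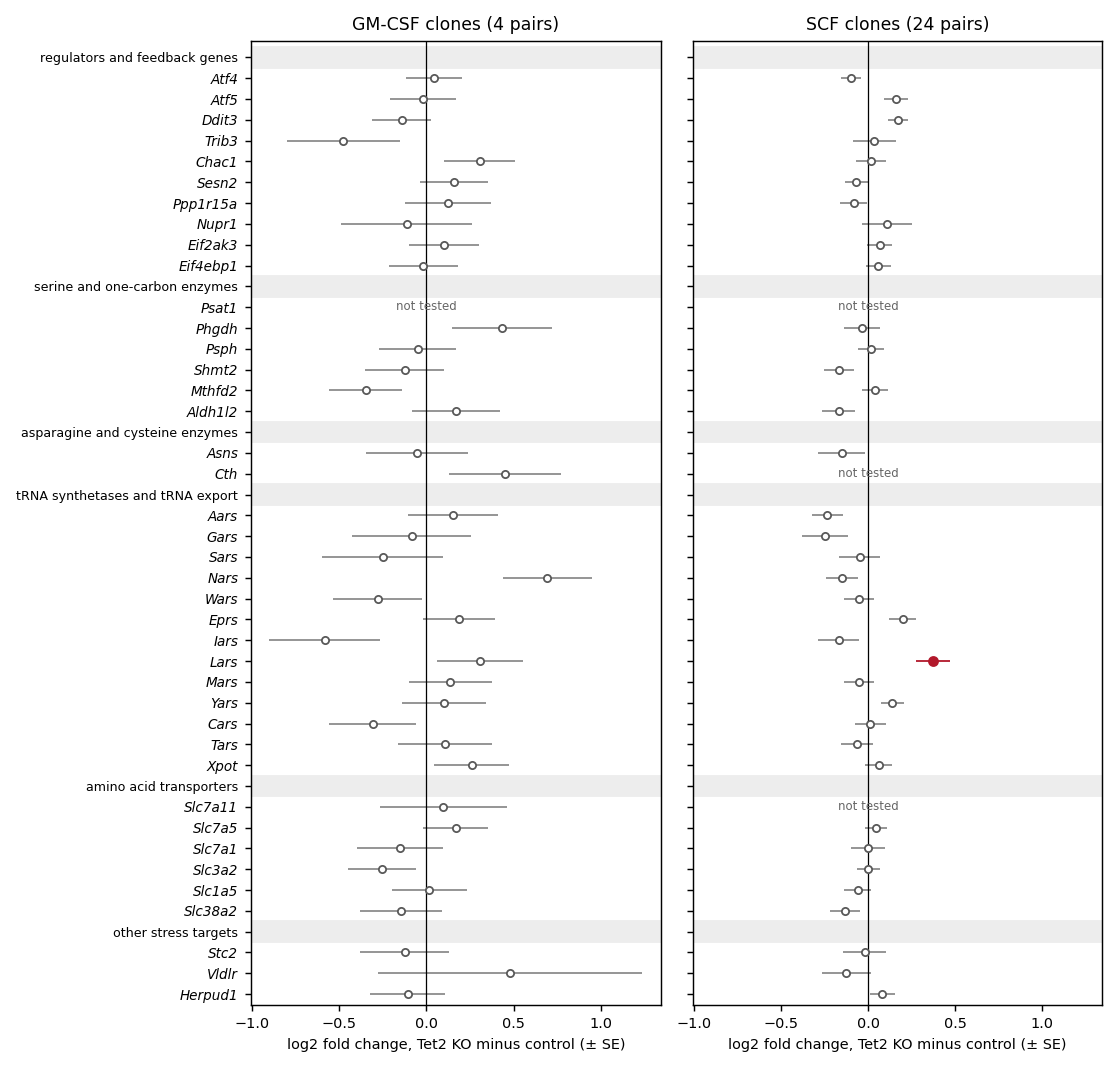
Log2 fold change of each member locus between Tet2 KO and sister control lines, in the 4 GM-CSF pairs (left) and the 24 SCF pairs (right), with bars of 1 SE; the filled red point passed an adjusted p under 0.05. In SCF clones all values lie between -0.25 and 0.37 with Lars alone filled, and in GM-CSF clones the bars are wider and none is filled.

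In the 4 GM-CSF pairs, fitted together with the SCF pairs, 0 of 39 tested members were called, as were 0 of all 12734 loci (0%), while 1 member and 687 loci had an unadjusted edgeR p under 0.05. DESeq2 called 0 members as well. That member was Nars, asparaginyl-tRNA synthetase. It had 48.9, 102, 76.8 and 73.1 CPM in GM-CSF Tet2 KO lines 19 to 22, against 17.4, 56.7, 38.6 and 57.4 CPM in their control lines. It was thus higher in 4 of 4 pairs, but both lines of clone 19 held only 2 counts. Ppp1r15a was also higher in 4 of 4 pairs, and Ddit3, Mthfd2, Gars, Cars and Slc3a2 were lower in 4 of 4. The share of all loci with such a split was not counted. The log2 fold change of Nars was 0.69 ± 0.25 (unadjusted p = 0.00637, edgeR adjusted p = 0.796). The Tet2 KO line was higher in 9 of 24 SCF pairs (-0.15 ± 0.09, adjusted p = 0.373), and the difference between cytokines was 0.83 ± 0.27 (unadjusted p = 0.00222, adjusted p = 0.998). No member passed in that test of the difference (0% of all loci called, 535 loci and 1 member at an unadjusted p under 0.05). In GM-CSF pairs Mthfd2 gave -0.35 ± 0.21, Trib3 -0.48 ± 0.32, Cth 0.45 ± 0.32, Chac1 0.31 ± 0.21, Slc3a2, the heavy chain partner of amino acid exchangers, -0.26 ± 0.20, and Vldlr 0.48 ± 0.76, each with an adjusted p over 0.9. Atf4 (0.04) and Asns (-0.05) were near 0.

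Other genes of the pathway were counted from lists. Of 15 loci of the eIF2 core and its partners, 3 were higher and 0 lower in GM-CSF control lines, against 5.77% higher and 6.68% lower among all tested loci. Eif2ak2, the double-stranded RNA kinase PKR, had 56.6 ± 3.1 CPM in GM-CSF control lines and 25.6 ± 11.1 CPM in SCF control lines (SD, n = 4 and 24; log2 fold change 1.24 ± 0.22, edgeR adjusted p = 6.43e-06), and 1.53 ± 0.26 in Tet2 KO lines. Cebpb, a partner that binds DNA with ATF4, gave 0.76 ± 0.12 in control lines and 0.64 ± 0.15 in Tet2 KO lines, and Impact, an inhibitor of the kinase GCN2, gave 0.87 ± 0.24 in control lines. No locus of this list was called between Tet2 KO and control lines of SCF clones.

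Of 20 loci of the unfolded protein response that runs through IRE1 and ATF6, 4 were higher and 1 lower in Tet2 KO lines of SCF clones, against 4.64% higher and 1.52% lower among all tested loci. The chaperones Pdia4 (0.26 ± 0.06, edgeR adjusted p = 0.00296, higher in 18 of 24 pairs) and Hsp90b1 (0.25 ± 0.07, adjusted p = 0.00848, 16 of 24 pairs) were higher, as were Dnajb9 and the degradation adaptor Sel1l, both named after their values were seen, while Atf6 was lower (-0.40 ± 0.12, adjusted p = 0.0247, higher in 6 of 24 pairs). Between cytokines, Calr was lower in control lines (-0.33 ± 0.12) and Manf (0.36 ± 0.12) and Hyou1 (0.47 ± 0.16) were higher in Tet2 KO lines. Of 8 further cytosolic tRNA synthetases only Farsa was called (-0.38 ± 0.13 between cytokines in control lines), and of 17 mitochondrial ones only Cars2 (0.18 ± 0.05 between Tet2 KO and control lines of SCF clones).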

How the data were processed

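ATAC-seq was done on 56 libraries of 28 clones. The authors aligned reads to mm10 with Bowtie2, SAMtools and Picard (versions not given in the sources used here) and deposited raw counts for 297361 peaks of 301 bp, with no normalization. From the deposited counts, peaks within 10 kb of a GENCODE vM21 start were summed per gene, and CPM was computed from the total counts in all peaks of a library. A peak near several starts counts for each gene.

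Loci and peaks were tested with edgeR 4.0.16 (R 4.3.3): TMM scaling, a minimum count of 10 by group, the quasi-likelihood test, and Benjamini-Hochberg adjusted p under 0.05 for loci and at or under 0.01 for peaks. Tet2 KO contrasts held the clone as a block, because both lines of a number come from the same clone. Deviations of sister lines correlated weakly (median 0.071 in SCF and 0.048 in GM-CSF clones). The GM-CSF pairs and the difference between cytokines came from a fit of all 56 libraries. The study's main text describes the clones as derived from a Tet2 fl/fl mouse, while its reporting summary names lines of male and of female mice. The animal behind each clone is not given. The p-values thus reflect differences between clones, and a difference between animals or sexes cannot be told apart from them. Intervals cover counting error only.

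Named with values were Atf4, Ddit3, Asns, Trib3 and Chac1 in every comparison, each called member, and the member of smallest p in each role group without a call. The members and lists were chosen with earlier results of these data known. Tested on simulated data, the control-line comparison recovered 153 of 200 loci changed 2-fold (10 false calls), and the SCF pairs 190 of 200 changed 1.5-fold (13 false calls). The simulated libraries were drawn independently, with no effect shared by sister lines, and the changed loci were picked at random. These figures therefore do not give the sensitivity at single members or at loci with few counts. Alternatives were DESeq2 1.42.0, other scalings, filters and windows, and leaving out clones. The Tet2 KO libraries of clones 13 and 16 differed by less than sampling noise (chi-square per degree of freedom 0.995). Their controls differed, so both were kept and a fit without clone 13 was run. In control lines of SCF clones 5, 13 and 16 the share of counts on chromosome 1, relative to the median library, was 1.20, 1.14 and 1.12. It was 1.18, 1.14 and 1.10 in their Tet2 KO lines, and fits without these clones were also run. Whether clones 13 and 16 are independent was not tested. GM-CSF control libraries 19 and 20 also agreed within sampling noise (0.993 over 1923 loci, both shallow) and were kept, with fits that left out each.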

Additional observations from a re-analysis of the deposited data

How the results depend on the processing

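In control lines the 6 called loci became 3 with a 50 kb window and 1 to 7 when 1 GM-CSF clone was left out. In Tet2 KO lines the 6 became 1 to 6. Called peaks in control lines went to 7 at an adjusted p under 0.05 and to 0 to 5 when 1 GM-CSF clone was left out. In SCF pairs the 1 called locus became 2 with upper-quartile scaling (Aars added, lower), with a 1 kb window, without shallow clones, with a GC content offset, without clone 13 and without clones 5, 13 and 16 (Ddit3 added in these 5), and 2 with a 50 kb window (Nupr1 added). It became 0 in clones 23 to 29 alone and 0 with DESeq2, which gave Lars no adjusted p. At an adjusted p under 0.05, 1 peak was called in SCF pairs, against 0. Without the replicate block the SCF pairs gave 1 called locus and 0 called peaks, so the pairing by clone changed no call there, and the GM-CSF pairs and the difference between cytokines gave 0 under every alternative run. The cause of these shifts was not tested.

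Sign changes were limited to values that were not called. In SCF pairs Asns was 0.016 in clones 1 to 18, Chac1 was -0.017 with upper-quartile scaling and -0.00066 in clones 1 to 18, and Trib3 was -0.00043 and -0.0094 under the same 2 settings. In GM-CSF pairs Asns was 0.0082 with a 1 kb window and 0.032 without shallow clones, and Atf4 was -0.00012 with no filter and -0.0070 with a 50 kb window. Between cytokines in Tet2 KO lines Trib3 was 0.026 with a 50 kb window, 0.039 without shallow clones, 0.018 with a GC content offset and 0.063 against clones 1 to 18. The difference between cytokines for Asns was -0.023 with promoter share as a covariate and -0.029 with no replicate block. When 1 GM-CSF clone at a time was left out, the GM-CSF pairs gave -0.26 to 0.024 for Asns, -0.092 to 0.11 for Atf4 and -1.13 to 0.039 for Trib3. The difference between cytokines was -0.12 to 0.16 for Asns and -0.0085 to 0.19 for Atf4, and Trib3 between cytokines in Tet2 KO lines was -0.73 to 0.39.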

Other observations

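Among the 24 SCF clones, the members varied about as much as other loci. The chi-square per degree of freedom of a locus over clones had a median of 1.03 over the 37 tested members in Tet2 KO lines, against 1.13 over all 10409 loci, and of 1.12 in control lines, against 1.14 over all loci. It was over 2 for 1 member in Tet2 KO lines and for 2 members in control lines (2.70% and 5.41% of members, against 3.65% and 5.19% of all loci). Ddit3 was over 2 in both kinds of line (2.11 in Tet2 KO and 2.17 in control lines), and Tars, threonyl-tRNA synthetase, was over 2 in control lines only (1.35 in Tet2 KO and 2.23 in control lines), which was not tested as a difference.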
